A study of Mus musculus with 6 samples.

Results

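The genes described here are *Fgf5* and 8 further genes of the formative epiblast, *Otx2*, *Pou3f1*, *Zic2*, *Zic5*, *Foxd3*, *Tcf15*, *Sall2* and *Cdh2*, among the 54715 genes counted in WT and *Bdh2*-knockout ASCs. They were chosen by gene symbol after their knockout and WT values in these same libraries were known, so their differences between the genotypes are given as a description, without a test. ASCs (advanced embryonic stem cells) are mouse embryonic stem cells held by activin A, BMP4, CHIR99021 and LIF in a pluripotent state between naïve and primed. All 6 libraries came from cells of a 129/sv mother and a GOF/GFP father, in which GFP reports *Oct4* transcription, and differed by genotype: 3 were wild type, and 3 carried a CRISPR/Cas9 deletion in *Bdh2*. Knockout lines were grown from single colonies, and a line with a bi-allelic deletion was taken on for later work, so the knockout group may be 1 clone. The labels do not say whether the replicates were separate cultures, and p-values then measure only the spread between these libraries, which may be technical.

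After implantation the epiblast leaves naïve pluripotency and passes through a formative phase, in which cells gain the ability to form the germ layers and the germline, before it becomes primed. *Fgf5* is the classic marker of this step: it is nearly silent in the inner cell mass and appears in the early post-implantation epiblast. OTX2 and OCT6 (the product of *Pou3f1*) act with OCT4 at enhancers that open in this phase, and FOXD3, ZIC2 and ZIC5 are further factors of the same period. CDH2 (N-cadherin) is the adhesion molecule that cells gain as they lose E-cadherin on leaving an epithelium.

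The libraries held 18927748 to 28333541 counts on genes, and 3 counts, taken as the lowest level such depth can show, equalled 0.106 to 0.158 CPM (counts relative to the library total; counting error only). The targeted gene *Bdh2* had 203, 193 and 209 counts in the WT libraries and 164, 136 and 129 in the knockout libraries. After scaling by library size and composition (normalized CPM, used throughout unless FPKM is named) it fell from 9.43 ± 1.10 to 5.44 ± 0.485 (SD, n = 3), to 57.7% of WT, with an adjusted p of 2.46e-04 in edgeR's quasi-likelihood test. The pluripotent identity of the cells was visible in *Pou5f1* (OCT4), at 1469 ± 69.5 in WT and 1655 ± 31.3 in knockout cells, and in *Nanog*, at 333 ± 14.5 and 319 ± 6.44. Transcripts of adult liver stood apart between libraries: *Alb*, which encodes serum albumin, was at 331, 197 and 22.01 in WT replicates 1, 2 and 3 and at 17.3, 88.3 and 8.68 in knockout replicates 1, 2 and 3. Results for the 9 genes are therefore also given with a score of 20 adult hepatocyte genes as a covariate.

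The 250 bases before the transcript start are shown for the members with the largest and the smallest difference between the genotypes, *Fgf5*, *Foxd3* and *Zic5*, since they let the start regions of strongly and weakly differing genes be read side by side. They come from RefSeq for build GRCm38.p6, at chr5:98253934-98254183 on the plus strand for *Fgf5*, chr4:99656049-99656298 on the plus strand for *Foxd3*, and chr14:122465659-122465908 on the minus strand for *Zic5*, written 5′ to 3′ along the gene. Capitals mark the match to a searched motif.
Fgf5: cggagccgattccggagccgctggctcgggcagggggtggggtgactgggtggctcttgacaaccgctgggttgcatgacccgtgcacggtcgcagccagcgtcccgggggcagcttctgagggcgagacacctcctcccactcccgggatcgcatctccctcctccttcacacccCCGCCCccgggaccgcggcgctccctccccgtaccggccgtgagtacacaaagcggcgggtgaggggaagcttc
Foxd3: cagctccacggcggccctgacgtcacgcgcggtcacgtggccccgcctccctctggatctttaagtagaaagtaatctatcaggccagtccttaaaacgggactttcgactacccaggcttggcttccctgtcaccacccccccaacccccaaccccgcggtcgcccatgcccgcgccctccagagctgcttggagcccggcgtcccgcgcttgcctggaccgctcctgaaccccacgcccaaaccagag
Zic5: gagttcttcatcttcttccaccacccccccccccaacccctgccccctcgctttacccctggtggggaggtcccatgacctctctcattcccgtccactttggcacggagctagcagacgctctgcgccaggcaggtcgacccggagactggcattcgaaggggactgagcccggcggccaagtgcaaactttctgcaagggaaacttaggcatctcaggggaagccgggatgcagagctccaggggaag

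These windows were rich in G and C, at 70.8% for *Fgf5*, 65.6% for *Foxd3* and 62.4% for *Zic5*, where the median of 32817 RefSeq windows of the same length was 52.4%. The ratio of observed to expected CpG was 0.767, 0.854 and 0.458, above the median of 0.373 over all windows. Each window was searched on both strands for ATGCAAAT (the octamer bound by POU factors), TAATCC (the core read by OTX homeodomains), TATAAA (the TATA box), GGGCGG (the GC box), CCAAT (the CCAAT box) and CAGCTG (an E-box). The *Fgf5* window held GGGCGG once, on the other strand (the capitals), as did 32.7% of all windows, and none of the letters searched were in the windows of *Foxd3* and *Zic5*. RefSeq windows were also given for *Otx2* (4 starts) and *Sall2* (2 starts), 9 windows of 5 members in all. G and C made up 42.0% to 53.6% of the *Otx2* windows, and 28.0% and 64.4% of the *Sall2* windows. The ratio of observed to expected CpG was 0.529 to 1.033 for *Otx2*, and 0.0 and 0.251 for *Sall2*. Of the *Otx2* windows 1 held the TATA box, 1 the CCAAT box, 1 the OTX core and 1 none of them. A TATA box and a CCAAT box were in 1 *Sall2* window and no motif in the other one. Over all windows these motifs were found in 12.4% (TATAAA), 33.8% (CCAAT) and 6.25% (TAATCC), and ATGCAAAT and CAGCTG, which no member window held, in 1.60% and 13.01%. *Pou3f1*, *Zic2*, *Tcf15* and *Cdh2* had no entry in the set of windows used here.

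All 9 genes were higher in *Bdh2*-knockout ASCs than in WT ASCs, and in each of them the lowest knockout library lay above the highest WT library. Of the 16758 genes with enough counts to be tested, 41.7% differed between the genotypes at an adjusted p under 0.05 in edgeR, 21.0% being higher and 20.8% lower in knockout ASCs, and in 26.3% all knockout libraries lay above all WT libraries. All 9 members passed the count filter and the same threshold in the higher direction, which follows from how they were selected and is read no further. Their log2 fold changes (knockout over WT) ran from 0.27 for *Zic5* to 3.14 for *Fgf5*, with a median of 0.54 where the median of all tested genes was -0.01. Summed over the 9 genes, normalized CPM was 161 to 175 in the WT libraries and 259.8 to 267 in the knockout libraries. In RNA of whole cultures, more cells of a type and more RNA per cell cannot be told apart.

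*Fgf5*, the ligand of the group, lies on the plus strand of GRCm38 at chr5:98254184-98277030 (ENSMUSG00000029337). It was counted 5, 7 and 18 times in WT replicates 1, 2 and 3 and 113, 114 and 93 times in knockout replicates 1, 2 and 3. These counts correspond to 0.258, 0.347 and 0.712 normalized CPM in WT and 4.10, 4.18 and 3.88 in knockout ASCs. The knockout libraries were close to each other, whereas WT replicate 3 stood above the other two WT libraries, and the groups were far from overlapping. The mean was 0.439 ± 0.241 in WT and 4.05 ± 0.155 in knockout ASCs (SD, n = 3), a ratio of 9.24 and a log2 fold change of 3.14 (SE 0.28). In 9 of the 16758 tested genes (0.0537%) the log2 fold change was larger. The gene was chosen with these values known and passed the count filter through its knockout libraries, so this rank is a description only. Exact Poisson 95% intervals, which cover counting error only, were 1.62 to 11.7, 2.81 to 14.4 and 10.7 to 28.5 for the WT counts. The fold change thus rests on few counts in each WT library. Leaving out WT replicate 3, the WT library with the most *Fgf5* and the least *Alb*, raised the log2 fold change to 3.72, and with the hepatocyte score as a covariate it was 2.99.

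Among the transcription factors *Foxd3*, a forkhead factor needed to maintain the epiblast, had the next largest difference. The gene is on the plus strand at chr4:99656299-99658622. It was at 10.7, 12.7 and 11.2 normalized CPM in WT replicates 1 to 3 and at 35.6, 41.7 and 37.3 in knockout replicates 1 to 3. The knockout libraries lay close together, well above every WT library. The means were 11.5 ± 1.07 in WT and 38.2 ± 3.18 in knockout ASCs (SD, n = 3), a log2 fold change of 1.73 (SE 0.08), and 84 of the tested genes (0.501%) had a larger one.

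*Pou3f1* encodes the POU-domain factor OCT6 and is a single-exon gene on the plus strand at chr4:124656807-124660655. Its levels were 7.42, 6.74 and 7.20 normalized CPM in the WT libraries and 16.2, 15.4 and 17.9 in the knockout libraries. Neither genotype held a library that stood apart. The means were 7.12 ± 0.348 and 16.5 ± 1.30 (SD, n = 3), a log2 fold change of 1.21 (SE 0.09).

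*Otx2*, a homeodomain factor that directs the exit from naïve pluripotency and later the forebrain, lies on the minus strand at chr14:48657677-48673819. It stood at 12.4, 16.1 and 15.2 normalized CPM in WT and at 22.1, 20.2 and 22.5 in knockout ASCs. WT replicate 1 was the lowest of the 6 libraries, and the highest WT library remained below the lowest knockout library. The means were 14.6 ± 1.94 and 21.6 ± 1.22 (SD, n = 3), a log2 fold change of 0.56 (SE 0.09), which was 0.46 with the hepatocyte score as a covariate.

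*Zic2* and *Zic5* are zinc-finger factors that share a locus on chromosome 14 in opposite orientations, *Zic5* on the minus strand at chr14:122456795-122465677 and *Zic2* on the plus strand at chr14:122475435-122479852. *Zic2* was at 29.8, 27.3 and 31.7 normalized CPM in the WT libraries and at 39.7, 41.9 and 40.9 in the knockout libraries. *Zic5* was at 22.0, 24.7 and 23.2 in WT and at 26.3, 30.1 and 27.9 in knockout ASCs. Both genes separated the genotypes, *Zic5* by the narrower margin of the pair. The log2 fold change was 0.46 (SE 0.06) for *Zic2* and 0.27 (SE 0.07) for *Zic5*, whose means were 29.6 ± 2.23 and 23.3 ± 1.34 in WT and 40.8 ± 1.11 and 28.1 ± 1.91 in knockout ASCs (SD, n = 3).

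*Tcf15*, a basic helix-loop-helix factor that primes pluripotent cells for differentiation, lies on the plus strand at chr2:152143561-152149097. It was at 56.4, 49.0 and 61.2 normalized CPM in WT replicates 1 to 3 and at 82.3, 79.4 and 81.1 in knockout replicates 1 to 3. The knockout libraries were nearly level, while the WT libraries were more spread. The averages were 55.5 ± 6.12 in WT and 80.9 ± 1.41 (SD, n = 3), a log2 fold change of 0.54 (SE 0.07).

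*Sall2*, a zinc-finger factor of the spalt family, lies on the minus strand at chr14:52311172-52328762. It was at 6.13, 6.79 and 7.36 normalized CPM in the WT libraries and at 9.76, 10.1 and 8.64 in the knockout libraries. Knockout replicate 3 was the lowest of its group and still above every WT library. The means were 6.76 ± 0.616 and 9.51 ± 0.774 (SD, n = 3), a log2 fold change of 0.49 (SE 0.11).

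*Cdh2* lies on the minus strand of chromosome 18 from 16588877 to 16809246. It was at 17.5, 17.7 and 17.0 normalized CPM in WT and at 23.9, 23.4 and 20.5 in knockout ASCs. The WT libraries were almost equal, and knockout replicate 3 was the knockout library nearest to them. On average it was at 17.4 ± 0.340 in WT and at 22.6 ± 1.81 (SD, n = 3), a log2 fold change of 0.38 (SE 0.07).

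**Figure D1:**
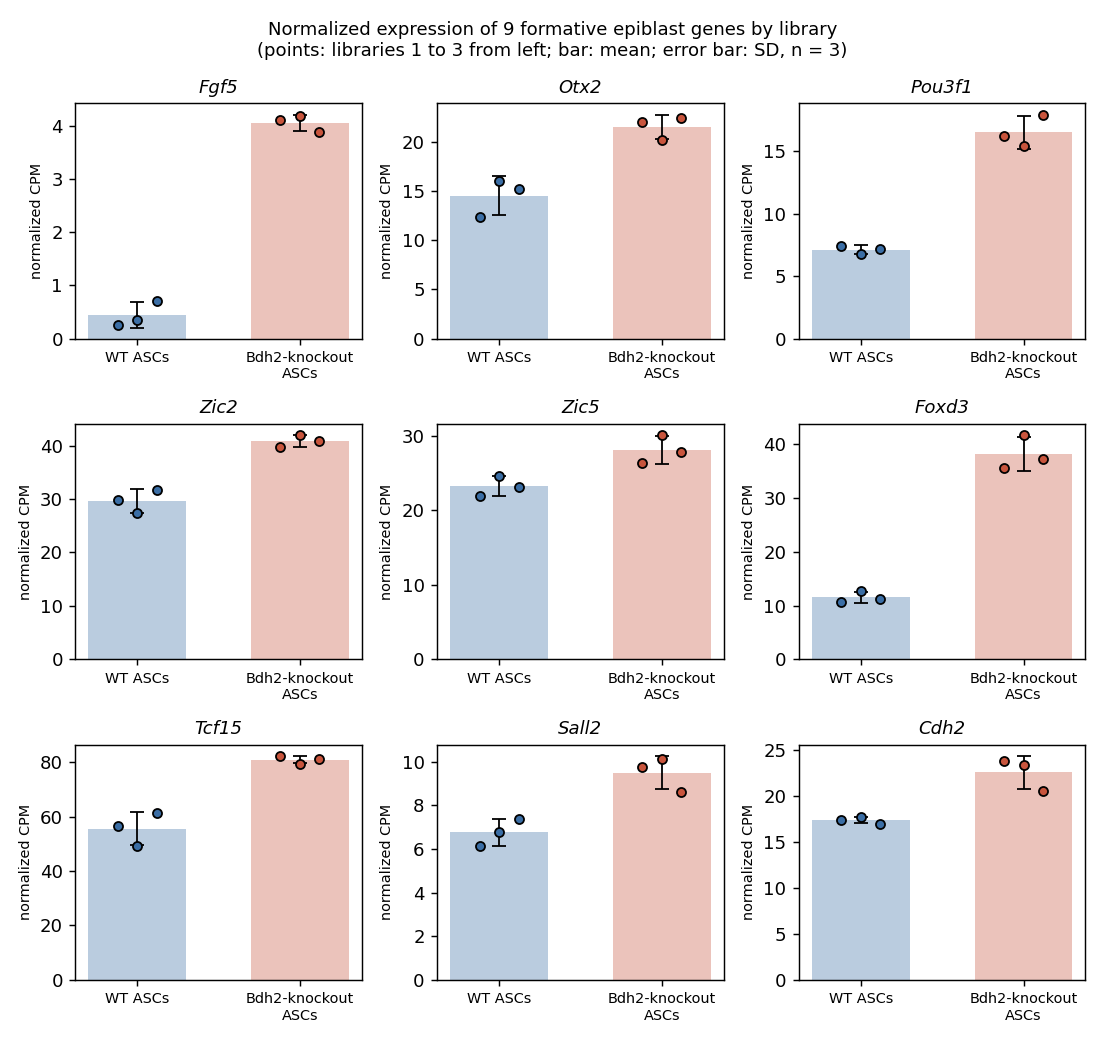
Normalized CPM of the 9 genes in each of the 3 WT and 3 *Bdh2*-knockout libraries (points), 1 panel per gene with its own axis, with the mean and SD of each genotype. In every panel the knockout libraries lie above the WT libraries, from 0.258 to 0.712 against 3.88 to 4.18 for *Fgf5* down to 22.0 to 24.7 against 26.3 to 30.1 for *Zic5*.

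Levels of different genes were compared per length, as FPKM (fragments scaled by gene length and library size). In WT ASCs *Tcf15* was highest at 57.7 ± 6.24 FPKM, followed by *Zic2* at 10.5 ± 0.765, *Foxd3* at 5.06 ± 0.462 and *Zic5* at 4.85 ± 0.267. *Otx2* (3.51 ± 0.452), *Cdh2* (2.20 ± 0.0522), *Pou3f1* (1.89 ± 0.0973) and *Sall2* (1.27 ± 0.108) came next, and *Fgf5* was last at 0.179 ± 0.0970 (FPKM, SD, n = 3). Among neighbours in this order, *Foxd3* and *Zic5* had overlapping libraries and all other pairs were apart. In knockout ASCs *Foxd3*, at 16.1 ± 1.37 FPKM, stood above *Zic2* at 13.9 ± 0.434, and *Pou3f1*, at 4.20 ± 0.351, above *Cdh2* at 2.74 ± 0.204. *Tcf15* was again first, at 80.8 ± 1.26 FPKM. *Fgf5*, at 1.59 ± 0.0545, was still last, but its libraries overlapped those of *Sall2* at 1.71 ± 0.132. The libraries of *Otx2* (5.002 ± 0.289) and *Zic5* (5.63 ± 0.399) overlapped too, and no other neighbours in the order did. Among all tested genes ordered by FPKM, *Fgf5* moved from the 5.21 percentile in WT to the 34.8 percentile in knockout ASCs, *Foxd3* from 55.0 to 79.5, and *Tcf15* from 94.5 to 96.2. *Fgf5* is in the tested set only through its knockout libraries. The order of the 9 genes was the same in TPM.

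**Figure D2:**
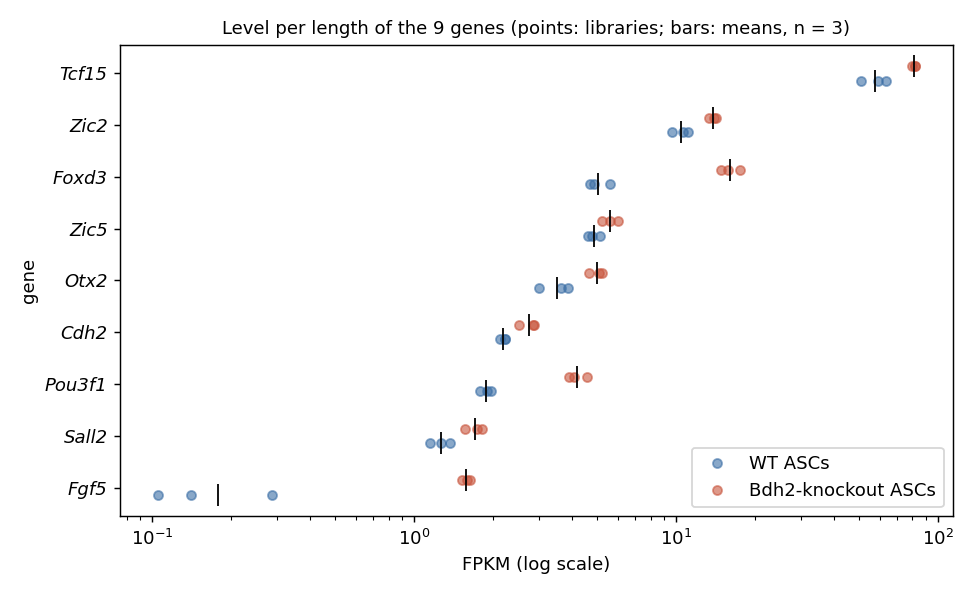
FPKM of the 9 genes on a log axis in WT and *Bdh2*-knockout ASCs, with each library as a point and the genotype mean marked. *Tcf15* is highest in both genotypes (57.7 and 80.8 FPKM) and *Fgf5* lowest (0.179 and 1.59 FPKM), while *Foxd3* and *Zic2*, and *Pou3f1* and *Cdh2*, change places.

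Some counts of the members could include reads of other genes. In the GENCODE M21 annotation of GRCm38, whose coordinates for the 9 genes are those of the count table, exons of other genes cover 8.57% of the exon bases of *Pou3f1* (*Gm2164*), 3.98% of those of *Otx2* (*Otx2os1* and *Gm49154*) and 3.83% of those of *Foxd3* (*Gm23366*), and 0 bases of the other 6. *Gm2164* lies on the strand opposite to *Pou3f1*, and *Otx2os1* opposite to *Otx2*. *Gm23366* lies on the same strand as *Foxd3*, and *Gm49154* on the same strand as *Otx2*. Of the 50-base stretches of each gene's transcript, 7.67% of *Zic5*, 7.42% of *Pou3f1*, 2.59% of *Foxd3* and 0.816% of *Fgf5* also occur in transcripts of other genes, and 0 of the other 5 members. Whether the counting used strand or kept reads with several matches is not given in the sources used here.

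The other formative and primed epiblast genes did not all follow the 9 members. Of 25 further genes of this phase, 15 rose, 6 fell and 4 did not pass the test (quasi-likelihood test of edgeR, adjusted over all tested genes after Benjamini and Hochberg, as for every adjusted p below), with a median log2 fold change of 0.34 against -0.01 for all tested genes. *Pim2*, a serine/threonine kinase, rose from 24.8 ± 2.32 to 102 ± 6.57 normalized CPM (log2 fold change 2.04, SE 0.07, adjusted p = 9.58e-10). *Sall3*, a relative of *Sall2*, rose from 18.4 ± 0.882 to 42.2 ± 5.84, and *Tcf7l1*, the WNT-pathway repressor that dampens the naïve network, from 26.6 ± 3.21 to 58.5 ± 3.56, with edgeR adjusted p of 7.29e-07 and 3.82e-07. The DNA methyltransferase genes differed: *Dnmt3b* rose from 252 ± 15.5 to 378 ± 15.3 and its cofactor *Dnmt3l* from 462 ± 17.8 to 844 ± 17.8, whereas *Dnmt3a* was at 132 ± 7.87 and 133 ± 2.87 (edgeR adjusted p = 4.43e-06, 3.84e-08 and 0.913). In the Nodal pathway, *Nodal* (37.3 ± 3.10 to 66.5 ± 0.641) and its feedback antagonist *Lefty1* (16.7 ± 3.14 to 30.6 ± 1.56) rose, while the second antagonist *Lefty2* fell from 137 ± 6.97 to 51.0 ± 3.29 (edgeR log2 fold change -1.42, SE 0.06, adjusted p = 7.78e-09). *Sox12*, a factor of the SOXC group, fell by 0.35 on the log2 scale (SE 0.06, adjusted p = 2.95e-04 in edgeR). *Sall1*, a further spalt factor, fell by 0.28 (SE 0.06, adjusted p = 0.00178 in edgeR).

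Genes of the naïve state moved in both directions. Of 19 naïve pluripotency genes 10 rose, 3 fell and 6 did not pass the test, with a median log2 fold change of 0.17, and their summed normalized CPM was 5745 to 5996 in WT and 5911 to 5978 in knockout libraries. *Nr0b1*, encoding the nuclear receptor DAX1, rose from 97.5 ± 8.01 to 155 ± 4.21, *Tbx3*, a T-box factor of the naïve network, from 89.5 ± 4.67 to 139.9 ± 11.9, and *Prdm14*, which restrains FGF signalling and DNA methylation, from 8.02 ± 0.579 to 11.1 ± 0.544 (edgeR adjusted p = 3.37e-06, 8.58e-06 and 0.00213). The adhesion gene *Pecam1* fell from 65.8 ± 4.41 to 45.3 ± 1.41, *Socs3*, the feedback inhibitor of LIF signalling, from 219.8 ± 11.2 to 153 ± 2.78, and *Dppa5a* from 2298 ± 108 to 2018 ± 59.5 (edgeR adjusted p = 1.42e-05, 6.58e-06 and 0.00560). The number that rose was lower without TMM scaling, at 6, with the hepatocyte score as a covariate, at 5, and without WT replicate 2 or knockout replicate 2, at 6 each.

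FGF ligands such as FGF5 act through receptor tyrosine kinases on ERK, which in turn induces its own inhibitors. Of 26 other FGF ligands, receptors and ERK feedback genes, 13 rose, 5 fell and 8 did not pass the test, with a median log2 fold change of 0.22. Among the ligands, *Fgf4*, the main FGF of naïve cells, rose from 146 ± 8.14 to 183 ± 1.07 normalized CPM, and *Fgf8*, a ligand of the primitive streak, from 1.503 ± 0.186 to 2.44 ± 0.0619 (edgeR adjusted p = 3.50e-04 and 0.0133), whereas *Fgf3*, *Fgf10* and *Fgf15* did not pass the test. Among the receptors, *Fgfr2* rose from 1.21 ± 0.245 to 4.03 ± 0.318 (log2 fold change 1.73, SE 0.20, adjusted p = 2.24e-05 in edgeR), and *Fgfr1* was at 121 ± 2.25 and 114 ± 5.49 (edgeR adjusted p = 0.208). *Fgfrl1*, a receptor without the kinase domain, fell from 8.14 ± 1.18 to 6.26 ± 0.558 and *Fgfr3* from 2.49 ± 0.876 to 1.51 ± 0.156 (edgeR adjusted p = 0.0340 and 0.0401). Among ERK targets, *Myc* (36.3 ± 4.35 to 66.7 ± 4.64), *Etv1* (8.22 ± 0.602 to 15.0 ± 1.10) and the phosphatase gene *Dusp4* (45.0 ± 1.82 to 70.1 ± 2.72) rose (edgeR adjusted p = 3.12e-06, 1.59e-05 and 1.94e-06). *Ier3* (47.3 ± 9.29 to 22.8 ± 6.10) and *Fos* (23.8 ± 2.27 to 20.4 ± 1.35), both immediate early genes, fell, and *Dusp6*, a further ERK phosphatase gene, was at 112 ± 6.0 and 117 ± 3.57 (edgeR adjusted p = 2.46e-04, 0.0390 and 0.336). *Egr1*, a further immediate early gene, rose by a log2 fold change of 0.35 (adjusted p = 2.67e-04 in edgeR). Of the other feedback genes, *Spry2*, *Spred1*, *Spred2* and *Il17rd* rose and *Spry1* did not pass the test. *Spry4* fell (log2 fold change -0.157, adjusted p = 0.031 in edgeR). The 5 falls became 2 with DESeq2, 3 with the hepatocyte score as a covariate or the replicate number as a block, and 1 to 3 when a library was left out.

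Close relatives of the members were often counted too little to be tested. Of 24 paralogs 14 were tested, of which 7 rose, 2 fell and 5 did not pass the test, with a median log2 fold change of 0.28. *Foxd1*, a relative of *Foxd3*, rose from 10.8 ± 1.53 to 28.1 ± 1.76 normalized CPM (log2 fold change 1.38, SE 0.09, adjusted p = 3.47e-07 in edgeR). In the spalt family *Sall3* and *Sall4* (171 ± 11.2 to 271 ± 14.01) rose and *Sall1* fell. Among the cadherins, *Cdh1* (E-cadherin) was at 546 ± 12.7 and 553 ± 10.8 (log2 fold change 0.02, adjusted p = 0.769 in edgeR), while *Cdh4* rose from 4.36 ± 0.825 to 8.53 ± 0.581 and *Cdh3* fell from 24.6 ± 0.643 to 21.8 ± 0.930 (edgeR adjusted p = 1.48e-04 and 0.0407). In place of 2 paralogs, 1 was lower with DESeq2, with the hepatocyte covariate, with no count filter, with the replicate block and without any 1 library. *Msc*, a relative of *Tcf15*, rose at very low counts (0.216 ± 0.157 to 0.614 ± 0.239, edgeR adjusted p = 0.0340). *Otx1*, *Pou3f3*, *Zic1* and *Scx*, all under 1.1 normalized CPM on average in both genotypes, did not pass the test. *Fgf6* and *Crx* had 0 counts in every library, which allows up to 0.106 to 0.158 CPM, and *Pou3f2*, *Pou3f4*, *Zic4*, *Foxd2*, *Foxd4*, *Tcf21*, *Tcf23* and *Cdh5* were below the filter.

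*Otx2* and the *Zic* genes later serve in the neural plate, so neuroectoderm genes were described too. Of 20 such genes 12 were tested, of which 4 rose, 1 fell and 7 did not pass the test, the same share called as over all tested genes (41.7%), and their summed normalized CPM was 102 to 114 in WT and 104 to 109 in knockout libraries. *Tubb3*, the neuronal tubulin, rose from 14.7 ± 0.832 to 26.8 ± 1.17 and *Sox1*, the earliest neural plate marker, from 2.77 ± 0.359 to 4.41 ± 0.409, while *Msi1*, an RNA-binding protein of neural progenitors, fell from 33.9 ± 0.389 to 22.1 ± 1.52 (edgeR adjusted p = 1.40e-06, 0.00462 and 1.05e-05). *Pax6* (0.292 ± 0.186 to 0.912 ± 0.0388) and *En1* (0.990 ± 0.0462 to 2.13 ± 0.212) were the other two that rose, both at low counts.

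Primitive streak and mesendoderm genes moved in both directions. Of 17 genes 14 were tested, with 7 higher, 3 lower and 4 not past the test. *Wnt3*, a WNT ligand that starts the streak, rose from 3.50 ± 0.188 to 7.42 ± 0.301 normalized CPM, *Eomes*, a T-box factor of the anterior streak, from 21.7 ± 2.04 to 40.0 ± 1.504, and *Evx1*, a posterior streak homeobox gene, from 8.70 ± 1.23 to 14.9 ± 2.88 (edgeR adjusted p = 2.33e-05, 1.23e-06 and 6.08e-04). *T* (brachyury) fell from 104 ± 15.9 to 79.7 ± 8.40, with overlapping libraries, and *Nkx1-2*, a caudal epiblast gene, from 30.9 ± 3.57 to 23.2 ± 1.99 (edgeR adjusted p = 0.00726 and 0.00201). *Cer1*, a secreted Nodal antagonist, had 0 counts in every library. With DESeq2 1 of these genes was lower instead of 3.

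Markers of 2 other cell types were read beside the 9 members. Of 20 primitive endoderm genes 19 rose and 1 fell, with a median log2 fold change of 2.10, and the summed normalized CPM of the list was 778 to 856 in WT and 1421 to 1547 in knockout libraries. All 20 had counts. The largest rises were those of *Cubn* (0.959 ± 0.253 to 13.2 ± 1.96), *Pth1r* (0.917 ± 0.242 to 8.86 ± 0.247) and *Sox17* (1.28 ± 0.210 to 10.3 ± 1.36), and the fall was that of *Hnf4a* (4.21 ± 0.188 to 3.02 ± 0.610, edgeR adjusted p = 0.0389), which was not called with DESeq2, with the covariate, or without any 1 library other than knockout replicate 2. Of 20 adult hepatocyte genes 0 rose and 17 fell, with a median of -2.22, led by *Serpina1a* (-2.57), *Hpd* (-2.46) and *Hpx* (-2.41), but the genotypes overlapped in each of the 20. With DESeq2 or limma-voom 0 fell, as without WT replicate 1, knockout replicate 1 or knockout replicate 3, and 4 fell without WT replicate 2. Their summed normalized CPM was 625, 391 and 62.9 in WT replicates 1 to 3 and 53.3, 185 and 37.1 in knockout replicates 1 to 3, so the genotypes overlapped in this sum. With the hepatocyte score as a covariate *Foxd3* was at a log2 fold change of 1.81, *Pou3f1* at 1.14, *Sall2* at 0.48, *Tcf15* at 0.46, *Cdh2* at 0.44, *Zic2* at 0.43 and *Zic5* at 0.31. The part of the primitive endoderm transcripts in the levels of the 9 genes was not tested.

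**Figure D3:**
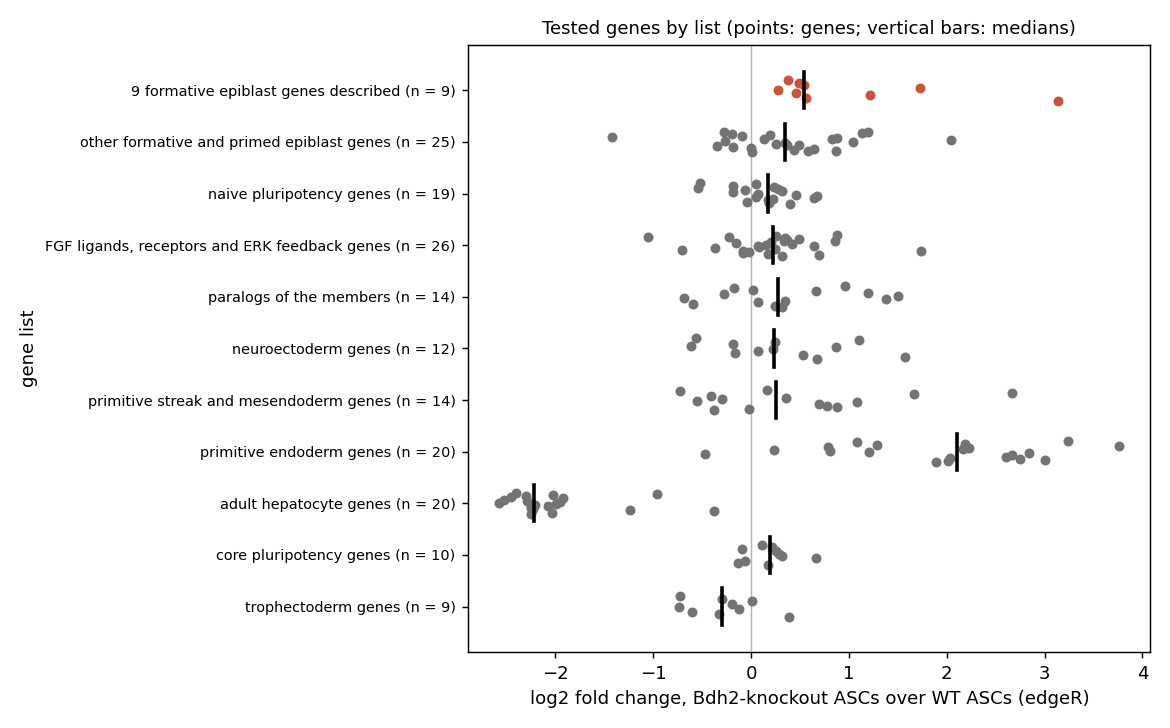
Log2 fold changes (knockout over WT) of the tested genes of each list, 1 point per gene, with the median of each list and a line at no change. The 9 members lie between 0.27 and 3.14, the primitive endoderm genes have a median of 2.10 and the adult hepatocyte genes of -2.22, and the other lists hold points on both sides of the line.

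The nearest genes on either side of the members were read as well. Of 17 tested nearest neighbours 3 were higher and 4 lower, so 7 were called (41.2%), close to the 41.7% of all tested genes. Tested neighbours could lie far away, up to 3221 kb (*Dsc2* from *Cdh2*) and 1516 kb (*Trav19* from *Sall2*). Those of *Fgf5* were *Antxr2* at 223 kb (log2 fold change 0.61, SE 0.28, adjusted p = 0.0928 in edgeR) and *Mir703* at 199 kb (-0.22, SE 0.27, adjusted p = 0.544 in edgeR). Beside *Foxd3*, the noncoding *Gm12688* at 1.32 kb rose by a log2 fold change of 0.75 (SE 0.17, adjusted p = 0.00338 in edgeR) and *Alg6* at 57.0 kb fell by 0.58. At the *Zic2* and *Zic5* locus *2610035F20Rik*, 0.236 kb from *Zic2*, was at 0.30 (SE 0.16, adjusted p = 0.149 in edgeR), while *Pcca* and *Clybl* on the outer sides fell by 0.48 and 0.51. On the sides of *Pou3f1*, *Rragc* at 719.8 kb rose by 0.36 and *Utp11* at 17.5 kb fell by 0.27. Beside *Tcf15*, *Srxn1* at 32.2 kb, which encodes the peroxiredoxin-repairing sulfiredoxin, rose by 0.90 (SE 0.05, adjusted p = 1.42e-07 in edgeR). The tested neighbours of *Otx2* (*Tmem260* and *Gm48909*), *Sall2* (*Mettl3* and *Trav19*) and *Cdh2* (*Gm7665* and *Dsc2*) did not pass the test, nor did *Rps15a-ps7* beside *Tcf15*.

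The genes whose levels were most like those of *Fgf5* over the 6 libraries were *Phf5a*, *Gab1*, *Sec24d*, *Dsg2* and *Clspn*, each with a Pearson correlation of 0.998 among 12717 genes compared. The other 8 members reached 0.870 (*Zic5*) to 0.971 (*Zic2*). These values include the gap between the genotypes, which all points share, and 2420 genes were above 0.9. With the genotype means removed, the correlation of the 5 genes with *Fgf5* was 0.967 to 0.985 and their ranks were 56 to 139. These genes were picked by their fit to the same values, so this follows largely from the choice. The correlation of the other 8 members, not picked in this way, was -0.12 (*Cdh2*) to 0.756 (*Sall2*). The deviations of *Fgf5* lie mainly between WT libraries with 5, 7 and 18 counts, where counting error is large. By rank correlation *Phf5a* and the member *Sall2* were among 234 genes tied at the highest value, above the other 4 of the 5 genes, so that measure gives no first 5.

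**Figure D4:**
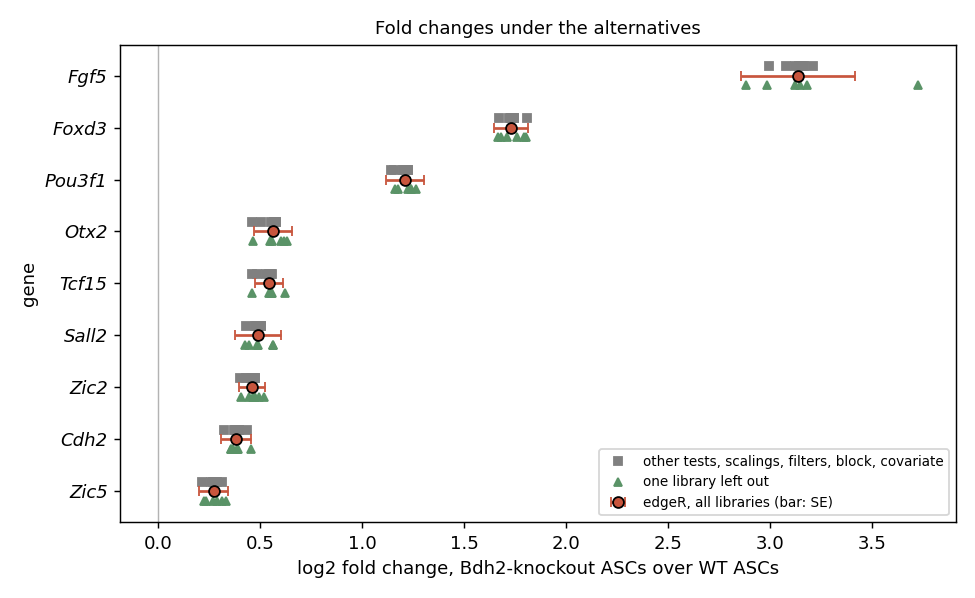
Log2 fold change (knockout over WT) of each of the 9 genes as reported, with its SE, and under 14 other ways of fitting (points). *Fgf5* spans 2.88 to 3.72, and the other 8 genes have narrower ranges.

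The log2 fold changes of the 9 genes were also computed in 14 other fits, among them those leaving out each library. Since the groups do not overlap, these fits bear on the size of a change and not on its direction. The range was 2.88 to 3.72 for *Fgf5*, 1.66 to 1.81 for *Foxd3*, 1.14 to 1.26 for *Pou3f1*, 0.46 to 0.63 for *Otx2*, 0.46 to 0.62 for *Tcf15* and 0.43 to 0.56 for *Sall2*. It was 0.40 to 0.52 for *Zic2*, 0.32 to 0.46 for *Cdh2* and 0.21 to 0.33 for *Zic5*, the gene nearest to no change.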

How the data were processed

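RNA of 3 WT and 3 *Bdh2*-knockout ASC samples was sequenced by the authors, who aligned the reads to GRCm38 with HISAT2 2.0.5 and counted them on genes with FeatureCounts. The deposited values are raw counts of 54715 genes in 1 table, with gene positions and lengths; the annotation release, the strand setting and the handling of reads with several matches are not given in the sources used here. GENCODE M21, which holds 99.4% of the identifiers, was used for exons.

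Counts were tested in R 4.3.3 with edgeR 4.0.16 (TMM scaling, filterByExpr, quasi-likelihood test, genotype as the only term, Benjamini-Hochberg adjustment over 16758 genes, threshold 0.05), after the functions were tested on simulated data. Normalized CPM is relative to the TMM library size. The counts and table lengths also gave FPKM and TPM. The covariate was the mean log2 level of 20 adult hepatocyte genes. Other fits used DESeq2 1.42.0, limma-voom (limma 3.58.1), median-of-ratios factors, library totals, no count filter, genes with a mean count of 50 or more, replicate number as a blocking term, and each of the 6 libraries left out. Plots were drawn with matplotlib 3.10.9 in Python 3.11.15.

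The members and gene lists, compiled from general knowledge, were chosen with earlier results of these data known. Named are the members, up to 3 largest rises and 3 largest falls per list among genes past the threshold with a mean count of at least 50, all paralogs, tested neighbours, *Bdh2*, *Alb* and the 5 genes most like *Fgf5*. *Pou5f1*, *Nanog*, *Sox2*, *Cdx2*, the *Dnmt3* genes, *Nodal*, *Lefty1*, *Fgfr1*, *Fgfr3*, *Fgf8*, the further *Fgf* ligands, the *Dusp* genes, *Egr1*, the *Spry* and *Spred* genes, *Il17rd*, *Utf1*, *Tdgf1*, *Pax6*, *En1* and *Cer1* were added after their values were seen. Promoter windows are those of RefSeq for GRCm38.p6. The authors' other assays were not analysed here. The values of 1 listed gene are not reported here.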

Additional observations from a re-analysis of the deposited data

How the results depend on the processing

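Among the 9 members, whose values were known when they were chosen, only the log2 fold change of *Fgf5* without WT replicate 3 (3.72) moved by more than the spread between replicates over the 14 alternatives. This spread was the SD of log2 normalized CPM within genotypes, from the averaged variances of WT and knockout libraries. It is not the SE given with the fold changes. The replicate numbers were not taken to pair the libraries: deviations from the genotype means correlated at -0.15, 0.12 and 0.27 between libraries of the same number, and WT replicate 1 correlated best with knockout replicate 2 (0.32). With the replicate number as a block 6452 genes in place of 6996 were called. Library totals without TMM gave 2731 higher and 4451 lower genes in place of 3518 and 3478, and leaving out 1 library gave 5613 to 7409 called genes. Of the lists, naïve genes called higher (10) became 5 with the hepatocyte covariate, 6 with library totals, and 6 to 11 with a library left out. FGF pathway genes called lower (5) became 2 with DESeq2, 3 with the covariate, 3 with the replicate block, and 1 to 3 with a library left out. Paralogs called lower (2) became 1 with DESeq2, the covariate, no filter, the replicate block and each library left out. Neuroectoderm genes called higher (4) became 2 with a mean count of at least 50, and those called lower (1) became 2 with library totals, that filter or no filter, and 1 to 2 with a library left out. Mesendoderm genes called higher (7) became 4 with a mean count of at least 50, and those called lower (3) became 1 with DESeq2. Primitive endoderm genes called lower (1) became 0 with DESeq2 and the covariate, and 0 to 1 with a library left out. The causes were not tested. Adult hepatocyte genes called lower (17) became 0 with DESeq2 or limma-voom, 0 with the covariate, which is made of the same genes, and 0 to 20 with a library left out. Depth limits *Fgf5* in WT (5 to 18 counts) and the paralogs below the count filter.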

Other observations

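Of 10 core pluripotency genes, 3 of which (*Utf1*, *Tdgf1* and *Nanog*) are also in the formative or naïve lists, 6 rose and 0 fell, with a median log2 fold change of 0.19. *Sall4* rose by 0.66, *Lin28a*, the RNA-binding protein that blocks let-7 maturation, from 453 ± 29.0 to 564 ± 24.1 normalized CPM, and *Dppa4*, a chromatin protein of pluripotent cells, from 138 ± 7.17 to 168 ± 4.09 (SD, n = 3; edgeR adjusted p = 5.49e-04 and 8.34e-04 for the last pair). *Sox2* was at 402 ± 22.1 in WT and 366 ± 12.99 in knockout ASCs (edgeR adjusted p = 0.0578). With the hepatocyte score as a covariate 3 of these genes rose and 1 fell, and 1 fell as well with library totals, with a mean count of at least 50 and without WT replicate 2.

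Of 10 trophectoderm genes 9 were tested, of which 0 rose, 4 fell and 5 did not pass the test, where 41.7% of all tested genes were called. *Cdx2*, the defining factor of the lineage, was at a log2 fold change of 0.39 (SE 0.17, adjusted p = 0.0812 in edgeR). *Tfap2c*, a factor of the trophoblast and of germ cells, fell from 33.8 ± 2.14 to 22.3 ± 0.910 normalized CPM, and *Ascl2* from 9.98 ± 1.42 to 8.16 ± 0.334 (SD, n = 3; edgeR adjusted p = 1.47e-05 and 0.0493). The number lower was 1 with DESeq2, 2 with the replicate block or a mean count of at least 50, and 1 to 4 with a library left out. The number higher was 1 with the hepatocyte score as a covariate, with no count filter and without WT replicate 1.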
